A study of Bos taurus with 48 samples.

Results

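The genes described here are TAC3 (ENSBTAG00000021807), TSHB (ENSBTAG00000006295) and NMUR2 (ENSBTAG00000011131), 3 neuroendocrine genes out of the 25669 genes counted in circulating leukocytes of beef calves. They were picked by their identifiers and followed across all 48 libraries. TAC3 encodes the precursor of neurokinin B, a tachykinin peptide that hypothalamic neurons use to drive the release of gonadotropin-releasing hormone through the receptor NK3R. TSHB encodes the hormone-specific subunit of thyrotropin, which pairs with a common alpha subunit and stimulates the thyroid, and whose main source is the anterior pituitary. NMUR2 encodes a G-protein-coupled receptor for neuromedin U and neuromedin S, found mainly in the central nervous system and linked to feeding and the stress axis, whereas the related receptor NMUR1 is the form usually described in peripheral tissues and immune cells. Neuroendocrine transcripts at low levels have long been known in leukocytes.

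Libraries were made from leukocytes of 12 calves, of which 6 were abruptly weaned when they were housed and 6 controls were housed together with their dams. The labels give the breed as Continental and the study's methods as intact male Simmental, all vaccinated against respiratory viruses before the experiment. Every calf had been at pasture with its dam, and gave 1 library on d 0, before housing, and 1 library on each of d 1, 2 and 7 after it, so that controls too had changed their surroundings by d 1. The 8 groups of 6 hold the same calves on successive days, and calves are named here by their numbers in the labels. Total counts lay between 1662995 and 4256011 per library, with a median of 3600161. Levels are given as CPM, which are counts relative to the library total scaled by the trimmed mean of M-values (TMM), and the counting limit of a library was set at 3 counts, or 0.686 to 2.08 CPM depending on the library. This limit covers counting error only. All 3 genes passed the filter of at least 10 counts in each contrast, but with edgeR's stricter filterByExpr filter only TAC3 did.

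The cell types could not be checked against their defining markers, because symbols are known for only 643 genes, those that the study's supplementary tables name. None of the markers fixed for leukocytes in general (4 genes), neutrophils (7), T cells (8), B cells (5) and monocytes (4) is among them, nor is any of 7 anterior pituitary markers. All 5 fibroblast markers are, and so are 1 of 5 platelet markers, 3 of 5 erythroid markers and 1 of 4 eosinophil markers (IL5RA). Levels in blood are averages over cells, and fewer cells of a type cannot be told apart from less RNA per cell. The study counted blood cells in the larger set of calves from which these were drawn. In its weaned calves neutrophil percentage was higher, and lymphocyte percentage and platelet number lower, on d 1 than at baseline. Monocyte percentage was lower on d 7. The part of these shifts in the levels given here was not tested.

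Some libraries went against their labels. Over the 300 genes that differed most between calves, 44 of 48 libraries correlated best with the other libraries of their own calf. These genes were chosen by the calf labels in the same libraries, so agreement with the own calf is partly built in. The d 7 library of weaned calf 1758 lay closer to calf 1770 (mean r = 0.51) than to its own calf (0.30), and the d 7 library of weaned calf 1770 lay closer to calf 1758 (0.47) than to its own (0.28). The d 2 library of control calf 1755 had a mean r of -0.07 with its own calf and of 0.18 with calf 1769, and the d 0 library of weaned calf 1758 had 0.11 and, with calf 1755, 0.18. Values that rest on these libraries are also given without the library or the calf concerned.

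TAC3 was the most evenly detected of the 3 genes, with counts in 48 of 48 libraries, 1124 in all, and a median level of 4.51 CPM. In control calves on d 0 it ranged from 1.13 to 14.4 CPM with a median of 6.48. On d 1 the range was 2.00 to 12.8 CPM around a median of 6.01, on d 2 it was 3.07 to 14.8 around 6.44, and on d 7 it was 3.79 to 34.6 around 5.78. The median of the control calves thus stayed near 6 CPM throughout, and calf 1789 alone extended the range on d 7, where the next calf had 9.60 CPM.

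In weaned calves the TAC3 median was lower on each later day than at the sampling before it. It was 8.51 CPM on d 0 (3.65 to 11.9), 4.11 on d 1 (1.50 to 31.9), 3.78 on d 2 (1.42 to 10.3) and 3.08 on d 7 (0.804 to 5.37). All 6 weaned calves had a lower level on d 7 than on d 0, although in calf 1762 the values were 3.64 and 3.65 CPM, from 12 and 11 counts. Calf 1758 went from 8.22 to 0.804 CPM, calf 1770 from 7.42 to 1.48 and calf 1809 from 8.80 to 2.51. The 2 d 7 libraries that each lay closer to the other calf hold 3 and 5 TAC3 counts. The d 0 libraries labelled with these calves hold 28 and 27, so either d 7 library lies below both. The d 0 library of calf 1758 also went against its label, so the fall in that calf is not secured. In control calves 3 were higher and 3 lower on d 7 than on d 0.

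**Figure D1:**
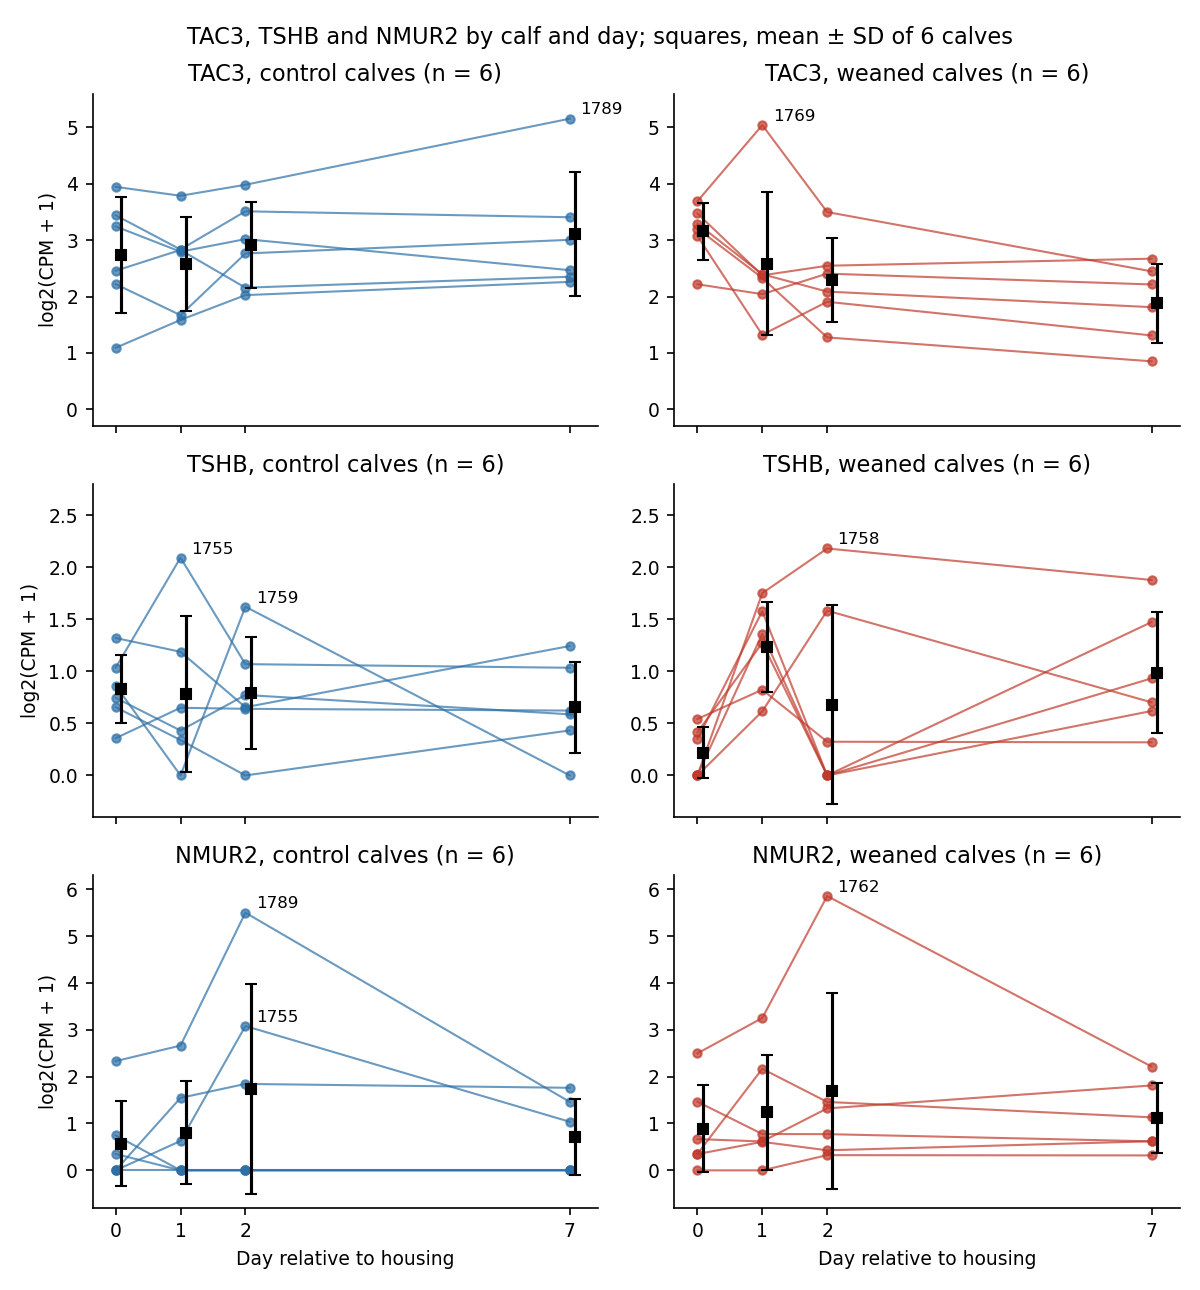
Level of TAC3, TSHB and NMUR2, as log2(CPM + 1), in each of 6 control calves (left) and 6 weaned calves (right) on d 0, 1, 2 and 7 relative to housing, drawn to scale. Each line is 1 calf, squares with bars are the mean ± SD of 6 calves, and the calves holding the 2 highest values of a panel are numbered. The TAC3 median of weaned calves is 8.51 CPM on d 0 and 3.08 CPM on d 7, with calf 1769 apart on d 1 (31.9 CPM), TSHB of weaned calves starts at or under 0.457 CPM on d 0, and NMUR2 peaks on d 2 in calves 1789 (44.2 CPM) and 1762 (56.8 CPM).

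The contrasts between weaned and control calves on d 7, and between d 7 and d 0 in weaned calves, are those for which TAC3 was chosen, so their values are a description and were not tested. On d 7, TAC3 averaged 3.04 ± 1.76 CPM in weaned calves and 10.6 ± 12 CPM in controls (SD, n = 6 each), a modelled log2 difference of -1.77 (SE 0.57), and the groups overlapped. Calf 1789 holds 55.3% of the control counts of that day. Without it the log2 difference was -0.87, without the d 7 libraries of calves 1758 and 1770 it was -1.39, and with flowcell as a block it was -0.81. Within weaned calves the log2 change from d 0 to d 7 was -1.45 (SE 0.39), without the d 7 libraries of calves 1758 and 1770 it was -1.06, and without calf 1758 altogether it was -1.25.

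The remaining contrasts of TAC3 were tested in fits across all genes by the quasi-likelihood F-test of edgeR. Adjusted p-values are those of Benjamini and Hochberg over all genes of a fit, and the call rule asks for an adjusted p under 0.05 together with a 2-fold or larger change. On d 0, before housing, the log2 difference between weaned and control calves was 0.28 (SE 0.43, adjusted p = 0.776). After housing it was 0.44 on the first day (SE 0.67, adjusted p = 0.959) and -0.71 on the second (SE 0.47, adjusted p = 0.950). The d 1 difference was carried by calf 1769, without which it was -0.79. In weaned calves the log2 change of TAC3 from d 0 to d 1 was -0.08 (SE 0.58, adjusted p = 0.953), and without calf 1769 it was -1.17. The change to d 2 was -0.91 (SE 0.40, adjusted p = 0.944), with 5 of 6 calves lower, at an unadjusted p of 0.0381 in edgeR and an exact permutation p of 0.0938. The edgeR fit had no calf term, whereas the permutation used the changes within calves. The corresponding change in controls was 0.07 (SE 0.48, adjusted p = 0.956), and the difference between these 2 changes was -1.19 (SE 0.43, adjusted p = 0.505, interaction term with calf as a block). In controls the change to d 1 was -0.25 (SE 0.53, adjusted p = 0.999), and the interaction on d 1 was -0.33 (SE 0.50, adjusted p = 0.710), or -0.93 without calf 1769. In control calves the change to d 7 was 0.60 (SE 0.55, adjusted p = 0.416), and without calf 1789 it was 0.06. None of these met the call rule, and the share of genes called was 0% in each of these contrasts except control d 7 against d 0, where it was 3.73%. The weaned d 0 libraries, and those of d 7, also enter the contrasts for which TAC3 was chosen, so these p-values are not independent of the choice.

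In TSHB the counts were few, 149 in all, with none in 9 of 48 libraries and a median level of 0.573 CPM, below the counting limit of every library. In weaned calves on d 0, none of the 6 libraries held more than 2 counts, and 3 held none. Their sum was 4 counts, with an exact Poisson 95% interval of 1.09 to 10.2. On d 1 the same calves held 34 counts (23.5 to 47.5), between 2 and 10 each, on d 2 they held 24 (15.4 to 35.7), and on d 7 again 24 (15.4 to 35.7). Control calves held 17 counts on d 0 (9.90 to 27.2), 20 on d 1 (12.2 to 30.9), 14 on d 2 (7.65 to 23.5) and 12 on d 7 (6.20 to 21.0). The lowest group is thus weaned calves on d 0. Its interval overlaps those of control calves on d 0, 2 and 7. It lies below those of control calves on d 1 and of weaned calves on d 1, 2 and 7. The intervals cover counting error only, and they overlap among most of the other groups.

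The 3 contrasts of later days with d 0 in weaned calves are those for which TSHB was chosen and were not tested. On d 1 TSHB averaged 1.44 ± 0.701 CPM, against 0.177 ± 0.203 CPM on d 0 (SD, n = 6 each). It was higher in 6 of 6 calves and the groups did not overlap in CPM, as was the case, in either direction, for 0.142% of all genes in this contrast. In counts the groups met, with 2 in calf 1769 on d 0 (0.457 CPM) and 2 in calf 1809 on d 1 (0.533 CPM). Both values lie under the counting limit. Since TSHB was chosen for this contrast, the share does not measure support for a change. For d 2 the mean was 0.965 ± 1.48 CPM, but 3 calves were back at 0 counts and calf 1758 alone gave 15 of the 24 counts, or 62.5%. The median of that day was 0.126 CPM, lower than on d 0 (0.137 CPM). On d 7 the mean was 1.13 ± 0.923 CPM, with 5 of 6 calves above their d 0 level. The modelled log2 changes from d 0 were 2.75, 2.30 and 2.40 on d 1, 2 and 7, and without calf 1758, whose d 0 library also went against its label, they were 2.34, 1.09 and 1.71. Since no d 0 library exceeded 3 counts, a fold is given only as a lower bound against that limit in each library. That limit averaged 0.847 CPM. On d 1 the mean level was at least 1.70-fold higher. Against the same limit it was 1.49-fold when calf 1758 was left out on d 1. For d 2 the mean exceeded the limit through calf 1758 alone, being 0.450 CPM without it, and for d 7 it did so through the libraries of calves 1758 and 1770, being 0.581 CPM without them, so that no fold is bounded there. Only on d 1 did all 6 weaned calves lie above their d 0 level, and 2 of these d 1 libraries held no more than 3 counts. The d 7 libraries of calves 1758 and 1770 gave 10 and 6 of the 24 counts of that day.

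Between weaned and control calves, TSHB had a modelled log2 difference of -1.94 on d 0 (SE 0.68, edgeR adjusted p = 0.624), before any calf had been treated, and an exact permutation p of 0.00649. Without calf 1758 the log2 difference was -1.74. The lower side is the same set of d 0 libraries on which the choice of TSHB rests, so this p is not independent of it. As a fold the difference is not resolved, because 3 counts in each weaned library would exceed the control mean of 0.817 ± 0.419 CPM. After housing, the log2 differences between weaned and control calves were 0.54 (SE 0.66) on the first day, 0.50 (SE 0.90) on the second and 0.73 (SE 0.63) on the seventh, with edgeR adjusted p-values of 0.959, 0.954 and 0.443. The weaned libraries of these days also enter the contrasts for which TSHB was chosen, so these p-values are not independent of the choice either. The d 1 difference was 1.49 without control calf 1755, which holds 60.0% of the control counts of that day, and 1.83 with flowcell as a block. The d 7 difference turned to -0.23 without the d 7 libraries of calves 1758 and 1770, and the d 2 difference to -0.46 without calf 1758. In control calves the log2 changes from d 0 were 0.24 on d 1, -0.17 on d 2 and -0.26 on d 7 (SE 0.70, 0.59 and 0.58; edgeR adjusted p = 0.999, 0.909 and 0.759). The d 1 change turned to -0.62 without calf 1755.

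NMUR2 was the most uneven of the 3 genes. It had 520 counts in all and none in 14 of 48 libraries, and 2 libraries held 58.1% of all its counts. These were the d 2 libraries of control calf 1789, with 170 counts (44.2 CPM), and of weaned calf 1762, with 132 counts (56.8 CPM). The next highest library of d 2 was that of control calf 1755, with 27 counts (7.45 CPM), which is also the library that did not correlate with its own calf. The other 9 calves stayed between 0 and 2.59 CPM on d 2.

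The same calves were high on other days, at far lower levels. Calf 1762 had 4.64, 8.52, 56.8 and 3.64 CPM on d 0, 1, 2 and 7, and was the highest weaned calf on each. Calf 1789 had 4.03, 5.33, 44.2 and 1.75 CPM, and was the highest control calf on d 0, 1 and 2, but on d 7 lay below calf 1802 (2.39 CPM). At the other end, control calf 1803 had no NMUR2 count in any of its 4 libraries, and control calves 1759 and 1763 had 1 and 2 counts, all of them on d 0. The high d 2 levels were therefore held by single calves, 1 or 2 in each treatment, while most calves held a handful of counts throughout.

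The d 2 against d 0 contrasts within each treatment, for which NMUR2 was chosen, had modelled log2 changes of 2.98 in weaned calves (SE 1.28) and 3.47 in control calves (SE 1.24), given here without a test. For weaned calves the study marked NMUR2 as lower on d 2 than on d 0, opposite in direction to the change given here. The reason was not tested. In weaned calves the mean was 10.2 ± 22.8 CPM on d 2 and 1.26 ± 1.77 CPM on d 0 (SD, n = 6), and the log2 change was 0.70 without calf 1762, 1.88 with calf as a block and 1.75 with flowcell as a block. In controls the means were 9.03 ± 17.4 CPM and 0.830 ± 1.59 CPM, and leaving out any 1 control calf gave log2 changes of 3.26, without calf 1755, to 3.69. Calves 1789 and 1755, the highest controls on d 2, were not left out together. From d 0 to d 2, 3 control calves rose and 2 fell, and 3 held no count on d 2. Among weaned calves 5 rose in CPM and 1 fell. Of these 5, calf 1773 held 1 count on both days and calf 1769 went from 0 counts to 1. The medians moved less, from 0.431 to 1.10 CPM in weaned calves and from 0.137 to 1.30 CPM in controls.

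Of the tested contrasts of NMUR2, none met the call rule. Libraries of d 0 and d 2 also enter the contrasts for which NMUR2 was chosen. The p-values of contrasts that use them are not independent of the choice. On the log2 scale, the difference between weaned and control calves was 0.51 before housing and 0.72, 0.04 and 0.69 on d 1, 2 and 7 (SE 1.03, 1.04, 1.31 and 0.82; edgeR adjusted p = 0.824, 0.959, 0.997 and 0.583). The d 2 value was decided by single calves, being -3.27 without calf 1762, 2.16 without calf 1789 and -0.01 without calf 1755. The same calves moved the d 0 and d 1 differences, which were -0.55 and -0.34 without calf 1762 and 2.54 and 2.11 without calf 1789, and the d 7 difference was 1.31 without calf 1802 and 1.73 with flowcell as a block. Changes from d 0 to d 1 were 0.90 in weaned calves (SE 0.95, edgeR adjusted p = 0.608) and 0.67 in controls (SE 1.14, adjusted p = 0.999), and to d 7 they were 0.23 (SE 0.83, adjusted p = 0.954) and 0.08 (SE 1.01, adjusted p = 0.962). In controls the d 1 change was 1.30 without calf 1789, and the d 7 change was 1.79 without it, -0.80 without calf 1802 and 1.77 with flowcell as a block. The interaction terms were 0.06 on d 1 (SE 1.30) and 0.07 on d 7 (SE 1.34), with edgeR adjusted p-values of 0.980 and 0.975.

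**Figure D2:**
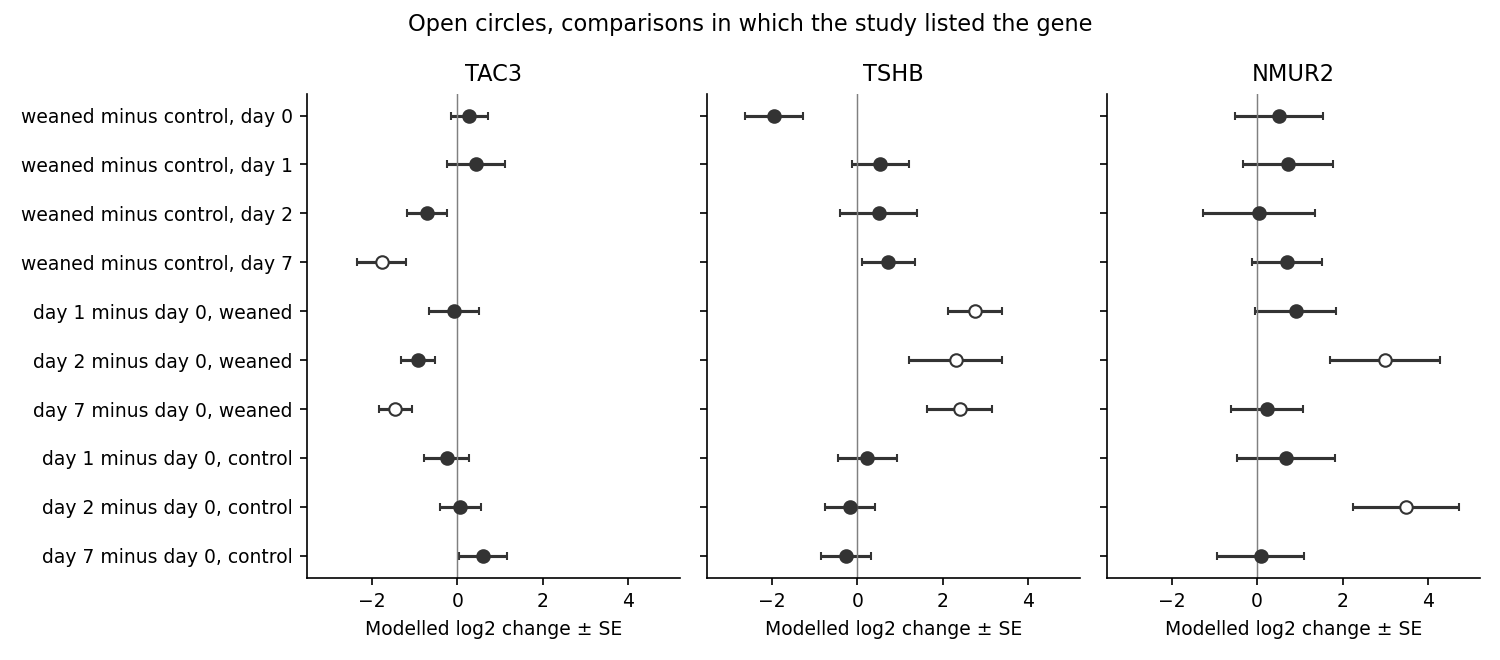
Modelled log2 change ± SE of TAC3, TSHB and NMUR2 in the 10 contrasts of 2 groups of 6 libraries, with open circles for the contrasts in which the study listed the gene, which were not tested. Among the filled circles, TSHB on d 0 lies farthest from 0, at -1.94, and rests on 4 counts in weaned calves.

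Over the 3 genes, 23 contrasts of 2 groups were tested and 7 were not. Adjusted p-values in edgeR ran from 0.416 to 0.999, with 2 unadjusted p-values under 0.05, those of TAC3 on d 2 in weaned calves, where 2.11% of all genes had one, and of TSHB on d 0 between treatments, where 6.23% had one. Of the 23 exact two-sided permutation tests on log2(CPM + 1), 1 gave a p under 0.05, that of TSHB on d 0. Many of the 23 contrasts share libraries with those by which the genes were chosen, so these p-values are not independent of the choice. The smallest p that 6 against 6 calves can give is 0.00216, and the smallest over the signs of 6 calves is 0.0312.

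Levels also differed from calf to calf. Whether calves of 1 treatment kept different levels over the 4 days was tested over all 48 libraries, with the 8 groups and 10 calf terms in the model. TAC3 (F = 9.71, edgeR adjusted p = 8.34e-06) and NMUR2 (F = 14.7, edgeR adjusted p = 2.48e-07) differed between calves, and TSHB did not pass (F = 2.14, edgeR adjusted p = 0.0932). Of all genes tested, 35.9% passed, so that a difference between calves is common in these libraries. Each calf's libraries were sequenced on 1 or 2 of 8 flowcells, which overlaps with calf. With flowcell as a block the edgeR adjusted p was 4.52e-04 for TAC3, 0.00921 for NMUR2 and 0.658 for TSHB. That fit tested fewer than 10 calf terms, because those that flowcell already determines were left out.

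For TAC3, mean levels over the 4 days ran from 2.50 ± 1.17 CPM in calf 1803 to 19.2 ± 10.4 CPM in calf 1789 among controls, and from 3.29 ± 2.82 CPM in calf 1770 to 14.6 ± 11.9 CPM in calf 1769 among weaned calves (SD over 4 days). Calf 1789 was the highest control on each of the 4 days and calf 1769 the highest weaned calf on d 0, 1 and 2. Of the variation of log2(CPM + 1) among the 24 control libraries, 78.8% lay between calves and 4.99% between days. Among the 24 weaned libraries these shares were 45.0% and 26.2%.

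For NMUR2, calf means ran from 0 in calf 1803 to 13.8 ± 20.3 CPM in calf 1789 among controls, and from 0.125 ± 0.144 CPM in calf 1769 to 18.4 ± 25.7 CPM in calf 1762 among weaned calves. Calves took 60.3% of the variation in control and 70.1% in weaned libraries, and days 11.6% and 5.36%. The difference between calves was still called without the d 2 peaks. Without the d 2 libraries of calves 1762, 1789 and 1755 the edgeR adjusted p was 3.82e-05 for NMUR2, and without calves 1762 and 1789 altogether it was 0.00885 for NMUR2 and 0.00120 for TAC3. For TSHB the remainder after calf and day was the largest share, 45.5% in weaned and 53.9% in control libraries.

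**Figure D3:**
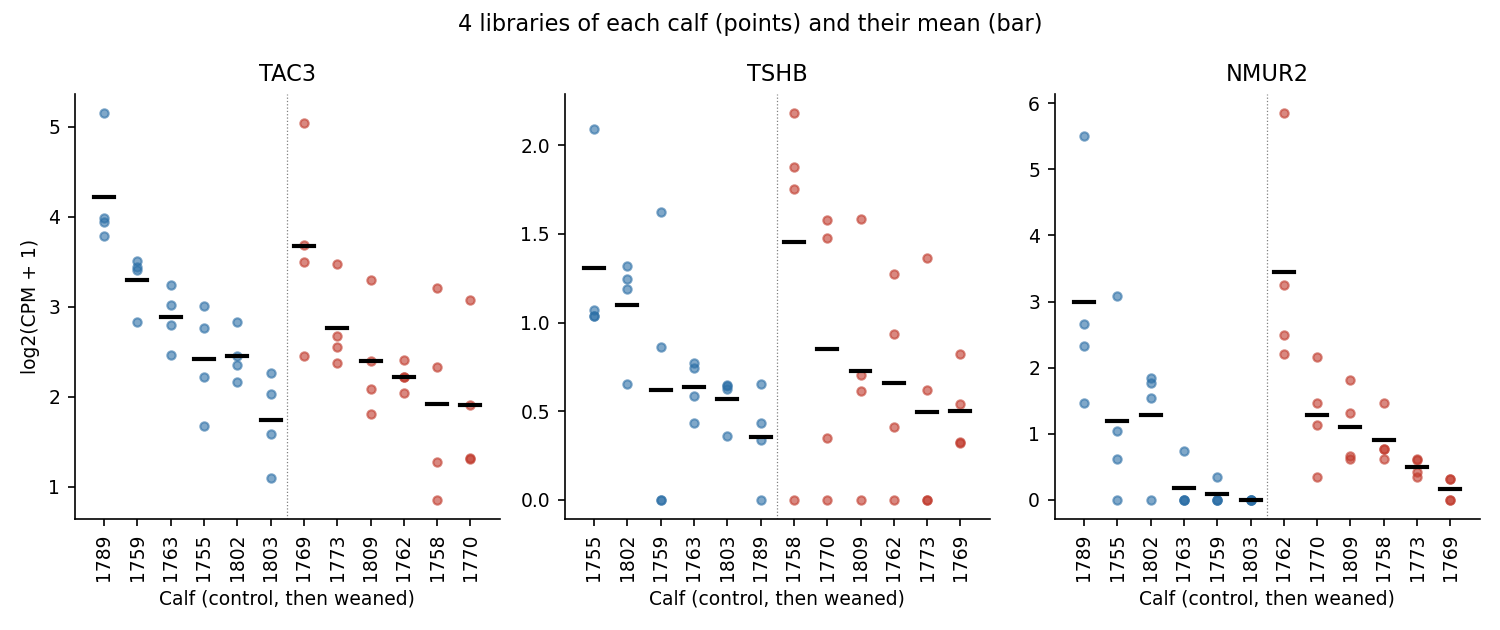
Levels of TAC3, TSHB and NMUR2, as log2(CPM + 1), in the 4 libraries of each calf (points) with their mean (bars), control calves in blue to the left of the dotted line and weaned calves in red, ordered by mean CPM. TAC3 is highest in control calf 1789 and weaned calf 1769, NMUR2 in control calf 1789 and weaned calf 1762, and control calf 1803 has no NMUR2 count.

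Ordered by mean level, TAC3 was highest in control calves on d 7 (10.6 CPM), followed by weaned calves on d 0 (8.34 ± 2.78) and d 1 (8.16 ± 11.7), control calves on d 2 (7.44 ± 4.49), d 0 (7.00 ± 4.84) and d 1 (5.85 ± 3.91), and weaned calves on d 2 (4.48 ± 3.11) and d 7 (3.04 CPM). TSHB was highest in weaned calves on d 1, d 7 and d 2, then in control calves on d 1, d 2, d 0 and d 7, and lowest in weaned calves on d 0. NMUR2 was highest on d 2 in weaned and then control calves, and the other 6 groups lay between 0.830 and 2.30 CPM. For each gene, no pair of neighbours in this order differed by more than the larger of their SDs.

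Levels of the 3 genes were weakly related to each other. Over the 48 libraries Pearson's r of log2(CPM + 1) was -0.43 between TAC3 and TSHB, 0.04 between TAC3 and NMUR2 and -0.11 between TSHB and NMUR2. These values describe 48 libraries of 12 calves, which share a calf in sets of 4, and no p is given.

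The 3 named genes whose levels were most like those of TAC3 were CLU (clusterin, r = 0.71), PPBP (platelet basic protein, r = 0.69) and TGM2 (transglutaminase 2, r = 0.68), at ranks 5, 6 and 7 of 13731 genes compared. In each of these genes the 2 highest libraries were the 2 highest of TAC3, control calf 1789 on d 7 and weaned calf 1769 on d 1. CLU reached 93.4 and 85.1 CPM there against a median of 15.4, TGM2 32.2 and 30.8 CPM against 7.94, and PPBP 9.80 and 29.0 CPM against 1.83. Without these libraries r was 0.55, 0.54 and 0.54. Named genes are only those that the study listed as changed in some contrast, so this likeness is not independent of that listing.

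Of the 3 erythroid markers measured, HBB (beta globin) and ALAS2 (haem synthesis in red cell precursors) were high in the same libraries, while SLC4A1 (the red cell anion exchanger) was at 0 in both. HBB stood at 36.8 CPM in calf 1769 on d 1 and at 40.2 CPM in calf 1789 on d 7, and ALAS2 had 111 and 24 counts there. The sum of the 3 was 65.3 and 48.6 CPM, the highest and second of 48 libraries. Medians of the groups lay between 7.86 and 14.3 CPM. In weaned calves the sum ranged from 8.96 to 20.1 CPM on d 0 and from 4.56 to 11.1 CPM on d 7, and PPBP, the only platelet marker measured under a symbol, from 0.995 to 5.26 CPM and from 0.804 to 2.97 CPM. The summed fibroblast markers (COL1A1, COL1A2, COL3A1, DCN and LUM) had a median of 146 CPM in weaned calves on d 0 and of 8.14 CPM on d 7, against 28.5 and 29.7 CPM in control calves. The study listed the 3 collagen genes as lower on d 7 than on d 0 in weaned calves, so this fall is not independent of that listing. The sum is mostly collagen, since DCN and LUM averaged 0.762 and 0.115 CPM over all libraries. The part of these markers in the level of TAC3 was not tested.

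**Figure D4:**
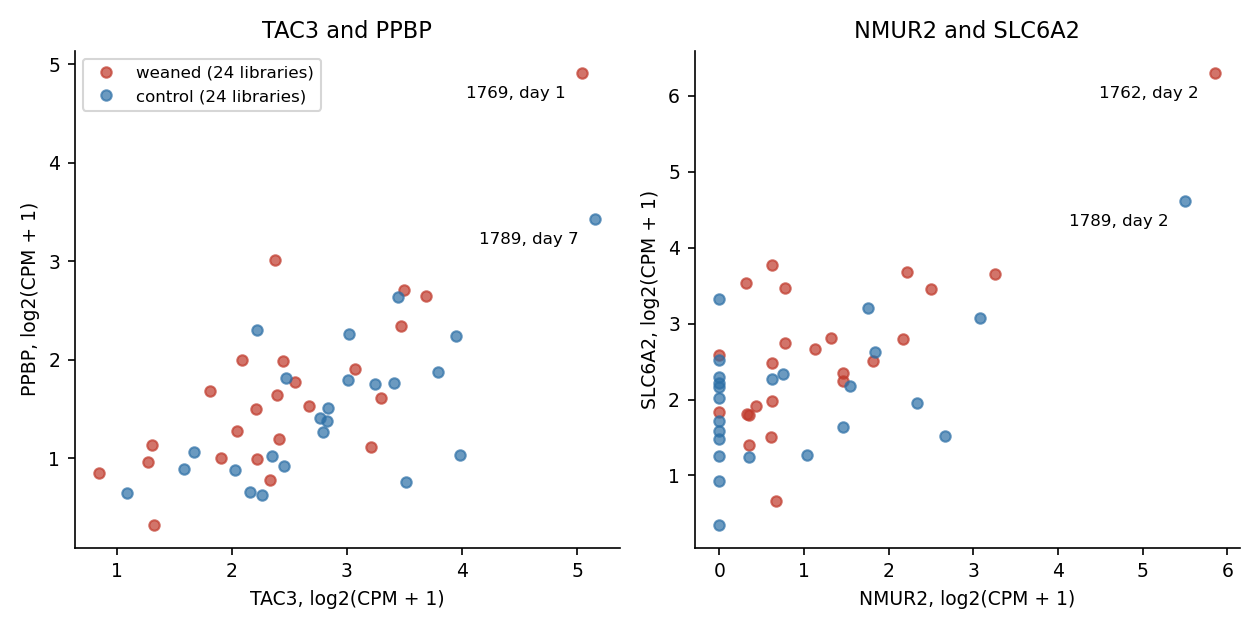
Level of TAC3 against PPBP (left) and of NMUR2 against SLC6A2 (right), as log2(CPM + 1), in 24 weaned (red) and 24 control (blue) libraries. In each panel the 2 libraries highest in the first gene are numbered by calf and day and are also the 2 highest in the second gene.

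For NMUR2 the named genes most like it were SLC6A2 (the noradrenaline transporter, r = 0.68), IL15RA (the interleukin-15 receptor alpha chain, r = 0.63) and SAG (arrestin of the retina, r = 0.54), at ranks 2, 5 and 29. The study listed SLC6A2 and IL15RA, like NMUR2, for weaned calves on d 2 against d 0. Their likeness to NMUR2 is therefore not independent of that listing. SLC6A2 stood at 77.5 CPM in calf 1762 on d 2 and at 23.4 CPM in calf 1789 on d 2, its 2 highest libraries, against a median of 3.78. IL15RA stood at 149 and 79.5 CPM there, also its 2 highest, against 21.1. Of 13732 genes with at least 48 counts, 63 had these 2 libraries on top, NMUR2 among them, and in 2 of the 63 the second of them was at least 2 times the third library. Without these libraries r was 0.43 for SLC6A2, 0.29 for IL15RA and 0.36 for SAG. Summed erythroid markers were 12.9 CPM in calf 1762 and 19.0 CPM in calf 1789 on d 2, and summed fibroblast markers 7.75 and 238 CPM, and the part of these markers in the level of NMUR2 was not tested.

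For TSHB they were GHSR (the ghrelin receptor, r = 0.63), FABP7 (the brain fatty acid binding protein, r = 0.63) and GTF2A1 (a subunit of the general transcription factor TFIIA, r = 0.62), at ranks 9, 10 and 12. The study listed GHSR, like TSHB, for weaned calves on d 2 against d 0, so its likeness is not independent of that listing. With 149 counts of TSHB and 167 of FABP7 over 48 libraries, these correlations rest on sparse counts and are given as a description. Without the 2 libraries highest in TSHB r was 0.51, 0.54 and 0.50.

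The partners of these genes could be followed only in part, because a symbol is known only for genes that the study listed as changed in some contrast. Of the tachykinin, neuromedin and thyrotropin lists (6, 8 and 11 genes), the only identified members were TAC3, NMUR2 and TSHB themselves. Of 15 genes of thyroid hormone production and action and 7 of the kisspeptin and gonadotropin-releasing hormone system, none was identified. Of 10 genes of prohormone processing and peptide breakdown 3 were, and of 20 genes of Gq and Gs signalling 2 were. Among these 5 genes no change met the call rule in 46 tests over the 10 contrasts with edgeR's F-test, against 0.370% of all tests of all genes in these contrasts, and 1 had an unadjusted p under 0.05, against 9.88%. In DESeq2 there was likewise no call, against 0.453%, and 1 unadjusted p under 0.05, against 10.3%. With edgeR's exact test on a common dispersion, 1 test met the rule, that of ACE on d 2 in weaned calves, in the downward direction, against 1.41%, and 9 had an unadjusted p under 0.05, against 11.9%. These 5 genes are known by symbol through the study's listing, and the contrasts that listed them were kept among the tests. The shares over all genes are therefore not a like background for them, and the counts are a description.

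ACE, a peptidase that cleaves angiotensin and tachykinins, averaged 21.7 CPM over all libraries, with 12.5 ± 4.14 CPM in weaned calves on d 2 and 32.2 ± 19.7 CPM in weaned calves on d 0 as the lowest and highest group. The log2 change between these groups was -1.39 (SE 0.39, edgeR adjusted p = 0.944). MME, or neprilysin, which also degrades tachykinins, averaged 1.05 CPM, from 0.631 ± 0.558 to 1.47 ± 1.40 CPM by group. PLCB1 and PLCB4, phospholipases C that act downstream of Gq-coupled receptors such as those for neurokinin B and neuromedin U, averaged 1.48 and 0.903 CPM. Their group means ran from 0.745 ± 0.555 to 2.01 ± 0.770 CPM and from 0.516 ± 0.450 to 1.58 ± 1.94 CPM.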

How the data were processed

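Leukocyte RNA of 12 calves on d 0, 1, 2 and 7 was sequenced as single reads, 48 libraries in all. Per the labels and the study's methods, the authors processed the reads with CASAVA 1.6, FastQC 0.9.1, Bowtie 0.12.7 and HTSeq 0.4.6p2, suppressed reads with several alignments and kept 1 read at each position before counting. The deposited values are raw counts of reads per Ensembl gene, not normalised. A strand setting of the counting is not given in the sources used here. Removal of identical reads lowers high counts most, and the levels of these genes are low. No position or sequence was used, and symbols are those of human orthologs in the study's tables.

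Counts were analysed in R 4.3.3 by the quasi-likelihood F-test of edgeR 4.0.16 after TMM normalisation, for genes that reached 10 counts in total in a comparison. DESeq2 1.42.0 was an alternative. CPM use TMM factors over all 48 libraries, and exact permutation tests and correlations used log2(CPM + 1). An SE is the modelled log2 change divided by the square root of F. Other steps used Python 3.11.15, numpy 2.4.6, pandas 2.3.3, scipy 1.17.1 and matplotlib 3.10.9. The procedures were tested on simulated data.

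The members, the gene lists and the comparisons were chosen with earlier results of these data known. Named besides them are the genes of each list that pass the call rule, the 2 of each list with the highest mean CPM, and for each member the 3 named genes of at least 48 counts with the highest Pearson r. Contrasts in which the study listed a member were not tested, nor were interactions built on them. Calf is the replicate. Libraries of 1 calf pair the days by design, and their deviations from the group means correlated by 0.482, 0.262 and 0.242 on average between d 0 and d 1, 2 and 7 in weaned calves and by 0.503, 0.341 and 0.214 in controls, over 10258 genes. The main edgeR fits between days had no calf term, so their SEs and p-values leave this pairing out. The exact tests between days used it. Alternatives were RLE size factors, DESeq2, no filter, filterByExpr, robust estimation, the exact test of edgeR on a common dispersion, all 48 libraries in 1 fit, flowcell or calf as a block, and leaving out each calf. Those without the named calves or libraries were added after seeing the data, except the calf test without the d 7 libraries of calves 1758 and 1770.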

Additional observations from a re-analysis of the deposited data

Results flagged for a closer look

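In 6 of 24 groups, 1 calf stood apart from the other 5 by more than Dixon's 95% critical value of 0.625 for the gap over the range. Chance gives about 1 in 20 groups only for independent, normally distributed values, whereas these CPM are skewed and the groups hold the same calves on successive days, so that this rate does not apply as it stands. All 6 are high values. TAC3 was at 34.6 CPM in control calf 1789 on d 7 (next calf 9.60 CPM) and at 31.9 CPM in weaned calf 1769 on d 1 (next 4.26 CPM). NMUR2 was at 4.03 CPM in control calf 1789 on d 0 (next 0.678 CPM), at 5.33 CPM on d 1 (next 1.92 CPM) and at 44.2 CPM on d 2 (next 7.45 CPM), and at 56.8 CPM in weaned calf 1762 on d 2 (next 1.75 CPM). Control calf 1789 accounts for 4 of the 6.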

How the results depend on the processing

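Of 288 values of the 3 genes under alternatives that keep all or most calves, 280 kept the direction and the side of the threshold, and none of the tested contrasts between groups met the call rule under any alternative run. Under 8 the direction turned. With flowcell as a block the log2 differences between weaned and control calves became -0.38 for TAC3 on d 1, -2.67 for TSHB on d 2 and -0.48 for NMUR2 on d 1, and the change of NMUR2 to d 7 in weaned calves became -0.09. The exact test with a common dispersion gave -0.05 for NMUR2 on d 2 between treatments, and the fit without calves 1762 and 1789 gave -1.17. TSHB on d 7 became -0.23 without the d 7 libraries of calves 1758 and 1770. The paired analysis, with calf as replicate block, changed no call of the 3 genes, and without the block the TAC3 interaction on d 1 was 0.22. The cause was not tested.

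Leaving out 1 calf turned the following log2 values, given as lowest and highest. Between treatments these were TAC3 on d 1 (-0.79 to 0.85), TSHB on d 2 (-0.46 to 0.80), and NMUR2 on d 0 (-0.55 to 2.54), d 1 (-0.34 to 2.11) and d 2 (-3.27 to 2.16). Within weaned calves they were TAC3 on d 1 (-1.17 to 0.11) and NMUR2 on d 7 (-0.13 to 0.76), and NMUR2 on d 2 kept its sign at 0.70 to 3.38. Within controls they were TSHB on d 1 (-0.62 to 0.49) and d 2 (-0.45 to 0.14) and NMUR2 on d 7 (-0.80 to 1.79). The NMUR2 interactions ran from -0.51 to 0.60 on d 1 and from -1.14 to 1.02 on d 7. For the difference between calves, adjusted p-values ran from 6.60e-06 to 0.00106 for TAC3, from 9.50e-08 to 2.39e-05 for NMUR2 and from 0.0647 to 0.274 for TSHB.

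Over all genes, the F-test called 0 genes in 9 of the 10 contrasts of 2 groups and in the 3 interactions, with 424 to 3552 genes at an unadjusted p under 0.05 between treatments, and 516 genes on d 7 in controls. With a common dispersion, the exact test called 68, 40, 75 and 865 genes between treatments on d 0, 1, 2 and 7, then 64, 62 and 38 within weaned calves and 18 on d 2 in controls. DESeq2 called 21 between treatments on d 7, and 1 on each of d 1 and d 7 in weaned calves, where the replicate block called 2 on d 1. The d 7 count in controls was 11 with flowcell as a block, 1 with all 48 libraries in 1 fit, and 0 to 1086 with 1 calf left out (0 without calf 1755, 1759 or 1763). Between treatments on d 7 it was 0 to 1137 with 1 calf left out, and above 0 only without calf 1809. The d 7 interaction called 625 genes with no filter on low counts and the d 1 interaction 0 to 1 with 1 calf left out. Genes that differed between calves numbered 2468 with flowcell as a block and 3179 to 6235 with 1 calf left out. With filterByExpr TSHB and NMUR2 were not tested, and DESeq2 gave no adjusted p for TAC3 on d 1 in weaned calves or for NMUR2 on d 2 between treatments and in weaned calves.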
